A study of Homo sapiens with 6 samples.

Results

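Ribosome biogenesis and nucleolar genes were examined in 22RV1, an established human prostate cancer line that expresses the secreted protease inhibitor SPINK1. The 41 genes were taken from a fixed list of names, and every probe that carried one of those names was used. They matched 56 of the 58201 probes on the array, and 52 of these were among the 27503 probes bright enough to test. Each of the 41 genes kept at least 1 tested probe, out of 21125 genes tested. All 41 were well above background in both dyes on all 6 arrays, so none of them entered through 1 group only.

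Stable 22RV1 lines had been made with the lentiviral vectors pLemiR-338-5p, pLemiR-421 or, as control, pLemiR-RFP, which carries a red fluorescent protein. All lines, the control included, were kept in RPMI with serum, antibiotics and puromycin. Total RNA of a miRNA line (Cy5) was hybridised with RNA of the control line (Cy3) on each of the 6 two-colour arrays, with no dye swap. The miR-338-5p group held replicates 1, 2 and 3, and the miR-421 group held a sample named as a pool and replicates 1 and 2. The labels do not say what was pooled, whether replicates were separate cultures or whether the lines were clones, so p-values measure the spread between these samples only. Values are given as the log2 of Cy5 over Cy3, and those under 0 mean less signal from the miRNA line than from the control. A dye bias of a probe, or a trait of the control culture, would enter both comparisons with control and cannot be told apart from the effect of either vector.

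Ribosomes are built in the nucleolus, where RNA polymerase I copies the ribosomal DNA into one long precursor RNA. Small nucleolar ribonucleoproteins (snoRNPs) mark that precursor: box C/D particles add methyl groups to ribose, and box H/ACA particles convert uridine to pseudouridine. Processing factors then cut, fold and trim the precursor into the RNAs of the small (40S) and large (60S) subunits. In cancer cells many of these genes are known targets of the transcription factor MYC, which binds the E-box motif CACGTG.

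The sequences of the overexpressed miRNAs are shown first because they define the groups. They are given 5′ to 3′ from RefSeq (GRCh38.p14), with the seed (bases 2 to 8) in capitals, and the seeds differ. hsa-miR-338-5p lies at chr17:81125923-81125944 on the minus strand, and hsa-miR-421 at chrX:74218392-74218414 on the minus strand.
hsa-miR-338-5p: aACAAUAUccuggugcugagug
hsa-miR-421: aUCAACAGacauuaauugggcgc

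The 60-base probes below reported the lowest member of the miR-421 group (NOP58), its highest member (IMP4), and the processing factor RRP12, which also rose there. Coordinates are those of the file headers' build (hg19). Each of the 3 probes spans more bases of the genome than its own length, so its sequence crosses an exon junction, as was the case for 8 of the 56 member probes. The NOP58 probe spans chr2:203167727-203168114 (plus strand), the IMP4 probe chr2:131103666-131103813 (plus strand) and the RRP12 probe chr10:99123617-99125880 (minus strand).
NOP58: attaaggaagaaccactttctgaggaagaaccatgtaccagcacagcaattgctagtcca
IMP4: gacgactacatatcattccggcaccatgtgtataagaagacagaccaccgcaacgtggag
RRP12: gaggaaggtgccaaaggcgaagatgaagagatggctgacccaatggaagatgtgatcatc

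Most of the 41 genes gave lower signals in both miRNA lines than in control. In the miR-421 line, 19 fell and 3 rose (limma, Benjamini-Hochberg over all probes tested, adjusted p under 0.05). The 19 ranged from NOP58 (37.0% of control) to NOP10 (85.4%), and the 3 that rose were IMP4 (205% of control), NIP7 (154%) and RRP12 (142%). In the miR-338-5p line only UTP20 (69.1% of control) and GNL3 (68.2%) fell under the same rule, and none rose. At an unadjusted p under 0.05, 15 members passed in the miR-338-5p line, where 28% of all genes tested and 31.6% of the bright ones did. In the miR-421 line 29 passed, beside 39.1% of all genes and 44.8% of the bright ones.

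For comparison, 12.9% of the 21116 genes tested fell in the miR-421 line and 10.1% rose. Among the 16284 of them that were well above background in both dyes on all 6 arrays, as the members are, these shares were 14.4% and 12.3%. In the miR-338-5p line 5.32% of 21123 genes fell and 4.06% rose, or 5.89% and 4.93% of the 16291 bright ones. The miR-338-5p counts, 2 of 41 and, unadjusted, 15 of 41, are near that background. The members' median log2 ratio was -0.18 in the miR-338-5p line and -0.41 in the miR-421 line, beside 0.00 over all genes tested in either. Of the 41, 29 lay below 0 in the miR-338-5p line and 31 in the miR-421 line, where 50.5% and 49.1% of all genes did. Fewer cells that make a transcript and less of it per cell cannot be told apart in such bulk RNA.

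**Figure D1:**
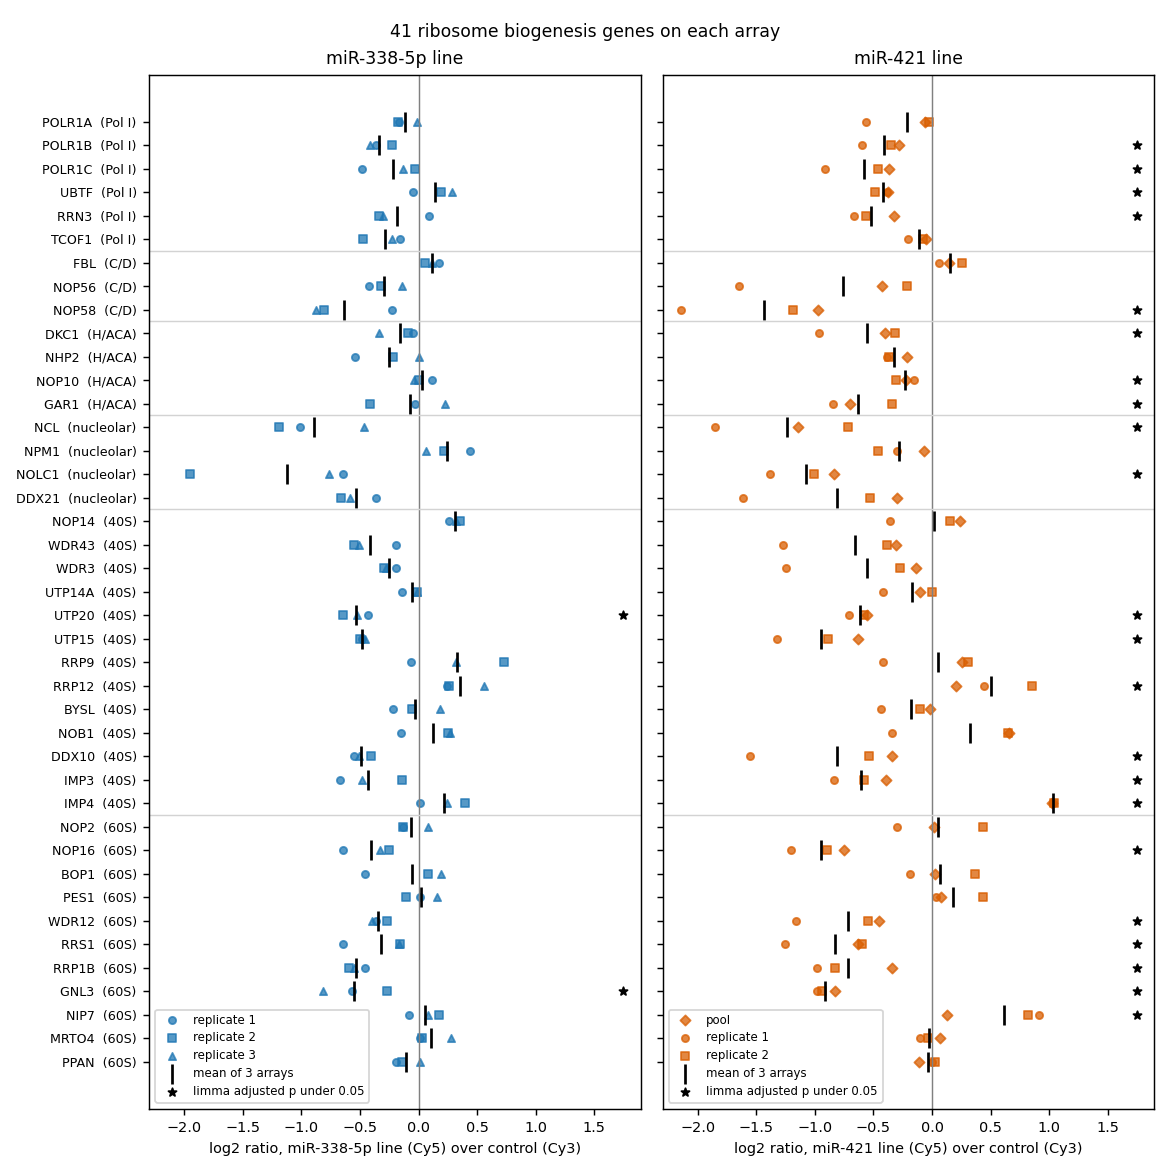
Log2 ratio of the miRNA line over control (x axis) for each of the 41 members (y axis, grouped by role), with 1 point per array, a bar at the mean of 3 arrays and a star where limma's adjusted p was under 0.05. Stars mark 2 genes in the miR-338-5p line and 22 in the miR-421 line, and IMP4 stands at about 1.03 on all 3 miR-421 arrays.

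**Figure D2:**
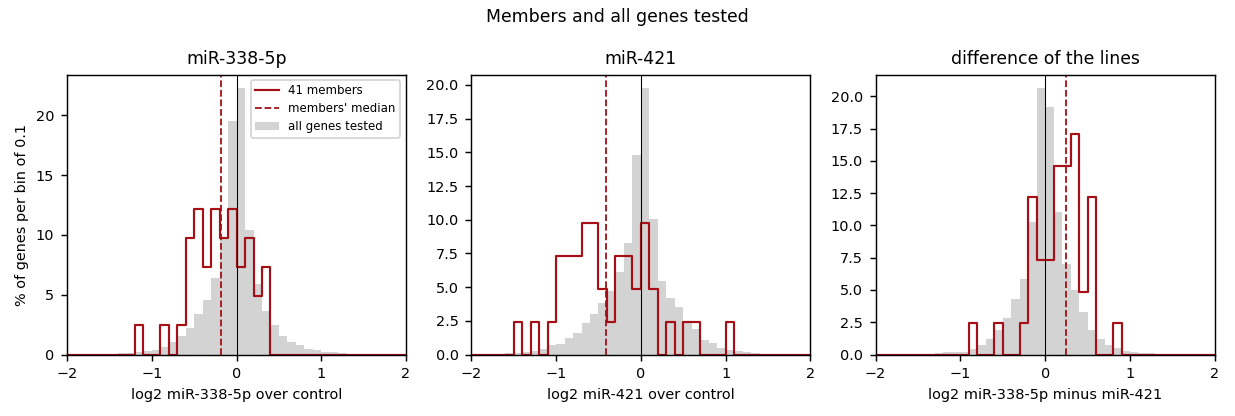
Percent of genes per bin of 0.1 (y axis) by log2 ratio (x axis) in each line against control and for the difference of the lines, for the 41 members (line) and all genes tested (grey bars), with the members' median dashed. The dashed medians are at -0.18, -0.41 and 0.24.

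One array weighs on these values. The members' median was -0.19, -0.16 and -0.13 on miR-338-5p replicates 1, 2 and 3, and -0.28, -0.60 and -0.34 on the miR-421 pool and replicates 1 and 2. The miR-421 replicate 1 array gave the lowest of the 6 values for 28 of the 41 members (68.3%), and for 26.9% of all genes tested. It also had the smallest share of Cy5 spots well above background, 41.9% against 46.8% to 48.3% on the others. The probe for MYC, which is not among the 41, read -0.23 on the pool, -2.20 on replicate 1 and -0.20 on replicate 2. The part of either in the members' values was not tested. Without this array the miR-421 median was -0.32, and 11 members passed, beside 10.8% of all probes tested. Leaving it out also lowered the spread that both groups share in the fit. Then 14 members passed in the miR-338-5p line, beside 13.3% of all probes tested. Without miR-421 replicate 2, only 2 members passed in the miR-421 line, beside 2.29% of all probes tested, with the members' median at -0.44.

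The RNA polymerase I genes were lower in the miR-421 line, where 4 of 6 fell, beside 14.4% of all bright genes, and the median was -0.41. None of the 6 passed in the miR-338-5p line, with a median of -0.20. UBTF, the factor that holds ribosomal DNA in an open, transcribed state, read -0.38, -0.38 and -0.49 on the miR-421 pool and replicates 1 and 2, a mean of -0.41 ± 0.06 (SD, n = 3, adjusted p = 0.0183). On miR-338-5p replicates 1, 2 and 3 it read -0.05, 0.19 and 0.29 (mean 0.14 ± 0.17, adjusted p = 0.295). All 3 miR-421 arrays therefore lay below the 3 miR-338-5p arrays, although the difference of 0.56 did not pass (adjusted p = 0.140). The sign of UBTF in the miR-338-5p line turned with median centring of the arrays (-0.036).

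RRN3, which recruits the polymerase to the promoter, fell to 69.9% of control in the miR-421 line (mean -0.52 ± 0.17, adjusted p = 0.0248). The polymerase subunits POLR1B (75.1% of control, adjusted p = 0.0201) and POLR1C (66.8%, adjusted p = 0.0310) fell there too. These are values of the brightest probes, and no other tested probe of RRN3, POLR1B or POLR1C passed there. POLR1A, the largest subunit, read -0.17, -0.17 and -0.01 on the miR-338-5p arrays and -0.06, -0.56 and -0.02 on the miR-421 arrays. Only miR-421 replicate 1 stood apart, and neither mean passed (-0.12 ± 0.09 with adjusted p = 0.581, and -0.22 ± 0.30 with adjusted p = 0.224). TCOF1 encodes treacle, a nucleolar partner of the polymerase. Its brightest probe read -0.16, -0.47 and -0.23 in the miR-338-5p line and -0.05, -0.21 and -0.08 in the miR-421 line, without passing in either (adjusted p = 0.0722 and 0.338). A dimmer TCOF1 probe was higher in the miR-421 line (mean 0.52, adjusted p = 0.0152).

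Among the 3 box C/D proteins, NOP58 fell furthest of all 41 members in the miR-421 line. NOP58, a core scaffold protein of the particle, read -0.98, -2.15 and -1.18 on the miR-421 pool and replicates 1 and 2 (mean -1.44 ± 0.62, adjusted p = 0.0149). Its miR-338-5p values were -0.22, -0.80 and -0.88 (mean -0.64 ± 0.36, adjusted p = 0.161). No miR-338-5p array reached as low as the highest miR-421 array, and the difference of 0.80 did not pass (adjusted p = 0.385). Its scaffold partner NOP56 had a mean of -0.76 ± 0.77 in the miR-421 line, where replicate 1 alone read -1.65 (adjusted p = 0.0890). FBL, fibrillarin, the methyltransferase of the same particle, passed in neither line. It read 0.18, 0.06 and 0.11 in the miR-338-5p line and 0.15, 0.06 and 0.25 in the miR-421 line (means 0.12 ± 0.06 and 0.15 ± 0.09, adjusted p = 0.269 and 0.113). Both FBL means turned negative with the image software's own ratio (-0.042 and -0.095) and the authors' table (-0.045 and -0.096). With median centring the miR-421 mean was 0.47 and passed (adjusted p = 0.0311), so the direction depends on the scaling.

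Of the 4 box H/ACA proteins, 3 fell in the miR-421 line and none passed in the miR-338-5p line (medians -0.44 and -0.12). Among all bright genes, 14.4% fell in the miR-421 line. DKC1, dyskerin, the pseudouridine synthase, read -0.40, -0.96 and -0.31 on the miR-421 arrays (mean -0.56 ± 0.35, adjusted p = 0.0371). On the miR-338-5p arrays it read -0.05, -0.09 and -0.34 (mean -0.16 ± 0.16, adjusted p = 0.521). The miR-338-5p replicate 3 value thus lay among the miR-421 values. GAR1 (64.6% of control, adjusted p = 0.0315) and NOP10 (85.4%, adjusted p = 0.0416) fell in the miR-421 line. NHP2, the remaining core protein, averaged -0.32 ± 0.10 there and -0.25 ± 0.28 in the miR-338-5p line (adjusted p = 0.0814 and 0.1996).

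The broad nucleolar proteins held the largest falls of the miR-421 line after NOP58. Of the 4, 2 passed there (median -0.95), where 14.4% of all bright genes fell. None passed in the miR-338-5p line (median -0.71). NCL, nucleolin, an abundant binder of precursor RNA, read -1.15, -1.85 and -0.72 on the miR-421 arrays (mean -1.24 ± 0.57, adjusted p = 0.0193). Its miR-338-5p values were -1.01, -1.19 and -0.47 (mean -0.89 ± 0.38, adjusted p = 0.0691). The ranges of the lines overlapped, and every array was below 0. NOLC1, a chaperone of snoRNPs, read -0.84, -1.38 and -1.01 in the miR-421 line (mean -1.08 ± 0.28, adjusted p = 0.0366). The miR-338-5p arrays read -0.64, -1.95 and -0.76 (mean -1.12 ± 0.72, adjusted p = 0.0528), with replicate 2 far below the others. DDX21, a nucleolar RNA helicase, averaged -0.82 ± 0.70 and -0.54 ± 0.16 in the miR-421 and miR-338-5p lines (adjusted p = 0.0604 and 0.222).

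NPM1, nucleophosmin, which carries ribosomal precursors and forms the outer nucleolar layer, had the brightest signal of the members. Its brightest probe read 0.44, 0.22 and 0.06 in the miR-338-5p line and -0.07, -0.30 and -0.46 in the miR-421 line. The lines lay on opposite sides of 0 on this probe, but neither mean passed (0.24 ± 0.19 and -0.28 ± 0.20, adjusted p = 0.195 and 0.101). Both of its other probes fell in the miR-421 line, to 70.3% and 67.5% of control (adjusted p = 0.0136 and 0.00563). In the miR-338-5p line they averaged -0.07 and -0.27 (adjusted p = 0.645 and 0.0497), so the dimmest probe also passed there, as lower. The sign of the miR-338-5p value turned with the authors' table (-0.16), and that of the miR-421 value with median centring (0.12). The miR-421 value passed with the authors' table (-0.62, adjusted p = 0.0372) and with the 3 probes averaged (-0.45, adjusted p = 0.0157). NPM1 has many near-identical processed copies in the genome, and their part in any probe's signal was not tested.

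**Figure D3:**
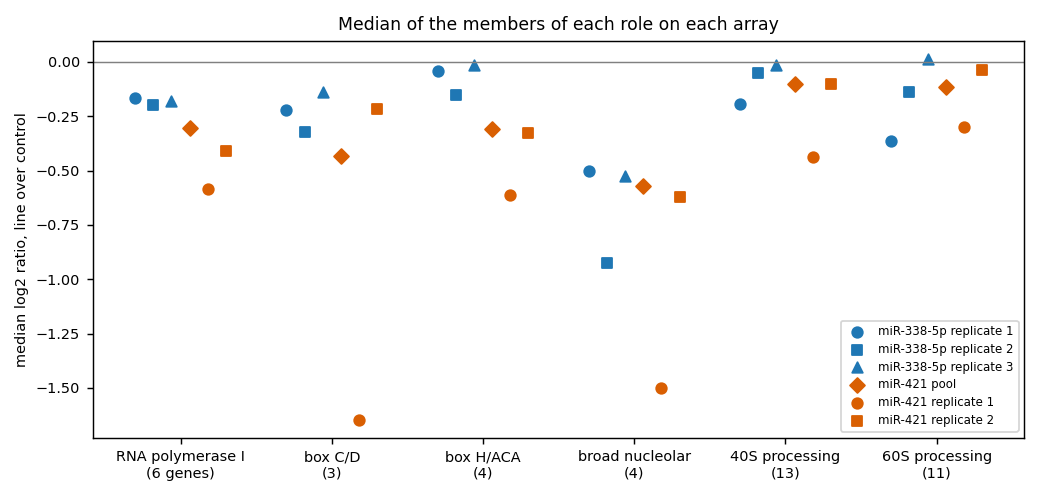
Median log2 ratio over control (y axis) of the members of each of 6 roles (x axis) on each array, with blue for the miR-338-5p line and orange for the miR-421 line. The broad nucleolar proteins have the lowest median on each array but miR-421 replicate 1, where the box C/D proteins are lower, and that array is the lowest of the miR-421 arrays in each role.

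Of the 13 factors of the 40S subunit, 4 fell and 2 rose in the miR-421 line (median -0.18). In the miR-338-5p line 1 fell (median -0.06). Among all bright genes, 14.4% fell and 12.3% rose in the miR-421 line, and 5.89% fell in the miR-338-5p line. The 2 rises and the 1 fall in the miR-338-5p line are near those shares. UTP20, a large scaffold of the small-subunit processome, fell in both lines. It read -0.43, -0.64 and -0.52 on the miR-338-5p arrays (mean -0.53 ± 0.11, adjusted p = 0.0128) and -0.55, -0.71 and -0.58 on the miR-421 arrays (mean -0.61 ± 0.08, adjusted p = 0.00521). All 6 values lay within a narrow range below 0. The UTP20 probe was the dimmest used for any member. With local background subtracted its means were -0.96 in the miR-338-5p line (adjusted p = 0.0526) and -1.36 in the miR-421 line (adjusted p = 0.0104), and with the image software's ratio -1.03 (adjusted p = 0.0792) and -1.55 (adjusted p = 0.0137).

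UTP15, which links the early processome to transcription, read -0.64, -1.32 and -0.89 in the miR-421 line (mean -0.95 ± 0.35, adjusted p = 0.00824). On the miR-338-5p arrays it read -0.48, -0.50 and -0.46 (mean -0.48 ± 0.02, adjusted p = 0.0674), above all 3 miR-421 arrays. DDX10, an RNA helicase, read -0.34, -1.55 and -0.54 in the miR-421 line (mean -0.81 ± 0.65, adjusted p = 0.0492), with replicate 1 far lower. On the miR-338-5p arrays it read -0.55, -0.40 and -0.51 (adjusted p = 0.225). IMP3, a partner of the U3 snoRNP, fell to 65.8% of control in the miR-421 line (adjusted p = 0.0242).

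WDR43 and WDR3, further processome proteins, averaged -0.66 ± 0.53 and -0.55 ± 0.61 in the miR-421 line without passing (adjusted p = 0.0593 and 0.109), and replicate 1 read -1.27 and -1.25. RRP12, which takes part in the export and late maturation of pre-ribosomes, rose in the miR-421 line to 0.21, 0.44 and 0.85 (mean 0.50 ± 0.33, adjusted p = 0.0442). The members NOP14, UTP14A, RRP9, BYSL and NOB1 (the nuclease that makes the final cut of the small-subunit RNA) passed in neither line, and their means lay between -0.18 and 0.33.

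IMP4, which holds the U3 snoRNA to the precursor, moved the other way from its partner IMP3. It read 1.03, 1.03 and 1.04 on the miR-421 arrays (mean 1.03 ± 0.0073, 2.05-fold of control, adjusted p = 0.00289). On the miR-338-5p arrays it read 0.02, 0.40 and 0.24 (mean 0.22 ± 0.19, adjusted p = 0.142). The groups were well apart, and the difference of -0.82 (95% interval -1.09 to -0.55) had an adjusted p of 0.0774.

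The genes on either side of IMP4 were then read, by a window of 200 kb chosen after the IMP4 value was seen. CCDC115, on the opposite strand, and PTPN18 are its neighbours in RefSeq's gene table. The brighter CCDC115 probe read 0.84, 0.97 and 0.99 in the miR-421 line (adjusted p = 0.00521) but -0.83, -0.42 and -0.86 in the miR-338-5p line (adjusted p = 0.0167). The dimmer CCDC115 probe averaged 0.55 in the miR-421 line (adjusted p = 0.0221) and -0.44 in the miR-338-5p line (adjusted p = 0.0608). PTPN18, a tyrosine phosphatase, read 1.71, 2.29 and 1.71 on its brighter probe in the miR-421 line (3.74-fold, adjusted p = 0.00266) and 0.48, 0.09 and 0.21 in the miR-338-5p line. Its dimmer probe was as high in the miR-421 line (3.78-fold) but read -0.12, -0.48 and -0.67 in the miR-338-5p line. Both neighbours thus were also higher than control in the miR-421 line. The difference between the lines passed for the brighter CCDC115 probe (-1.63, adjusted p = 0.0439), but not for the dimmer one (-0.98, adjusted p = 0.0999). For PTPN18 it passed on the dimmer probe (-2.34, adjusted p = 0.0439), but not on the brighter one (-1.65, adjusted p = 0.0688). Farther off in the miR-421 line, MZT2B (mean 0.52 ± 0.31, adjusted p = 0.0336) and CYP4F62P (0.54 ± 0.31, adjusted p = 0.0355) rose, FAR2P2 and POTEI did not pass, and SMPD4 fell (-0.96 ± 0.15, adjusted p = 0.0143). A transcript without a gene name, left out of the figure, fell there too (-0.39 ± 0.08, adjusted p = 0.0438). The rise was therefore not shared by all genes of the window.

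**Figure D4:**
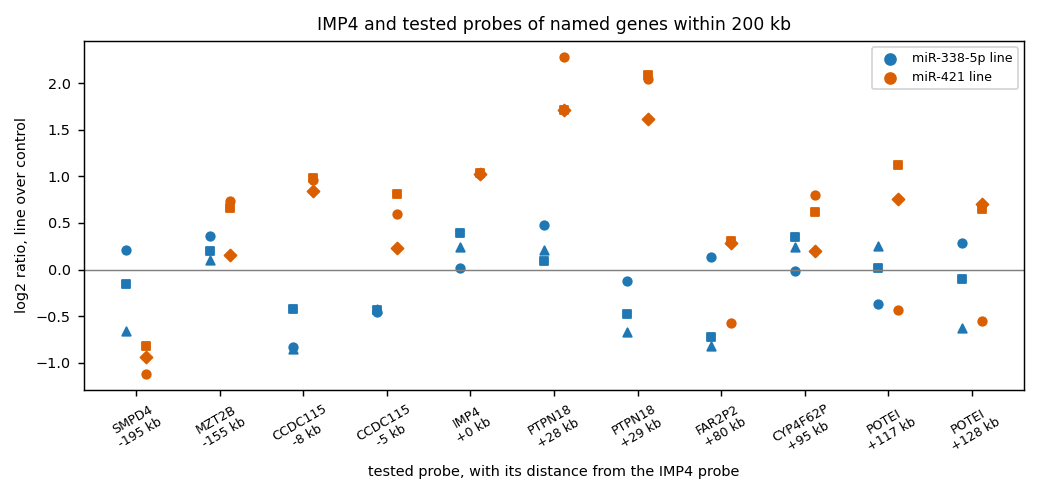
Log2 ratio over control (y axis) of the tested probes of named genes within 200 kb of the IMP4 probe, ordered along the chromosome (x axis, not to scale, with each distance in kb), 1 point per array. In the miR-421 line the probes of MZT2B, CCDC115, IMP4, PTPN18 and CYP4F62P are above 0 on all 3 arrays.

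Of the 11 factors of the 60S subunit, 5 fell and 1 rose in the miR-421 line (median -0.03), and 1 fell in the miR-338-5p line (median -0.11). The shares of all bright genes were 14.4% and 12.3% in the miR-421 line, and 5.89% fell in the miR-338-5p line. Each count of 1 is near its share. GNL3, nucleostemin, a nucleolar GTPase, fell in both lines. It read -0.57, -0.27 and -0.82 on the miR-338-5p arrays (mean -0.55 ± 0.28, adjusted p = 0.0340) and -0.83, -0.99 and -0.94 on the miR-421 arrays (mean -0.92 ± 0.08, adjusted p = 0.00633). Every miR-421 value lay below every miR-338-5p value, by little, and the difference of 0.37 did not pass (adjusted p = 0.363).

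NOP16, a component of large-subunit precursors, read -0.75, -1.21 and -0.90 in the miR-421 line (mean -0.95 ± 0.23, adjusted p = 0.00693) and -0.65, -0.25 and -0.33 in the miR-338-5p line (adjusted p = 0.0796). RRS1, which helps bring the 5S particle into the precursor, read -0.63, -1.26 and -0.60 in the miR-421 line (mean -0.83 ± 0.37, adjusted p = 0.0204) and -0.64, -0.16 and -0.17 in the miR-338-5p line (adjusted p = 0.258). The lines did not overlap for NOP16, and did for RRS1. RRP1B fell to 60.7% of control in the miR-421 line (adjusted p = 0.0149) and averaged -0.53 ± 0.07 in the miR-338-5p line (adjusted p = 0.0505).

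The PeBoW complex, formed by PES1, BOP1 and WDR12, matures the large-subunit RNA, and of these only WDR12 passed the test. WDR12 read -0.46, -1.16 and -0.55 in the miR-421 line (mean -0.72 ± 0.38, adjusted p = 0.0199) and -0.36, -0.27 and -0.40 in the miR-338-5p line (adjusted p = 0.174). PES1 averaged 0.18 ± 0.22 and BOP1 0.07 ± 0.28 in the miR-421 line (adjusted p = 0.225 and 0.789). NIP7, which joins large-subunit precursors, rose in the miR-421 line with 0.12, 0.91 and 0.82 (mean 0.62 ± 0.43, adjusted p = 0.0400), the pool being close to control. It read -0.08, 0.17 and 0.08 in the miR-338-5p line (adjusted p = 0.861). NOP2 (an RNA methyltransferase), MRTO4 and PPAN had means between -0.11 and 0.11 in both lines and passed in neither.

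Between the miRNA lines, no member passed in either direction, beside 0.0426% of the 21114 genes tested. At an unadjusted p under 0.05 there were 9 members, near the share of 14.5% of all genes tested and 17.2% of the bright ones. The fit with an intensity trend and robust variances also called 0. The members' median difference (miR-338-5p minus miR-421) was 0.24, and 30 of the 41 were above 0. Without miR-421 replicate 1 that median was 0.036. For 10 members (24.4%) no array of one line overlapped the other, and for 20.2% of all genes tested. The largest differences by size were IMP4 (-0.82), NOP58 (0.80), NIP7 (-0.56) and UBTF (0.56).

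Probes of one gene did not always give one value. Of the 41 genes, 33 had 1 tested probe and 8 had more, and each gene is represented above by its brightest. TCOF1 had a dimmer probe that was higher in the miR-421 line, at 0.44, 0.50 and 0.60 (mean 0.52 ± 0.08, adjusted p = 0.0152), where its brightest was not. The fall of POLR1C rested on its brightest probe, as the others averaged -0.04 and 0.13 (adjusted p = 0.850 and 0.142). The dimmer tested probes of DDX10, RRN3 and POLR1B gave -0.09, -0.09 and -0.15 in the miR-421 line and did not pass. These probes were dim, with mean log2 intensities of 5.98, 5.97 and 6.37. NOP56 had a second probe, above background on all 6 arrays, that averaged -0.014 in the miR-421 line and 0.13 in the miR-338-5p line, against -0.76 and -0.30 for the probe used.

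**Figure D5:**
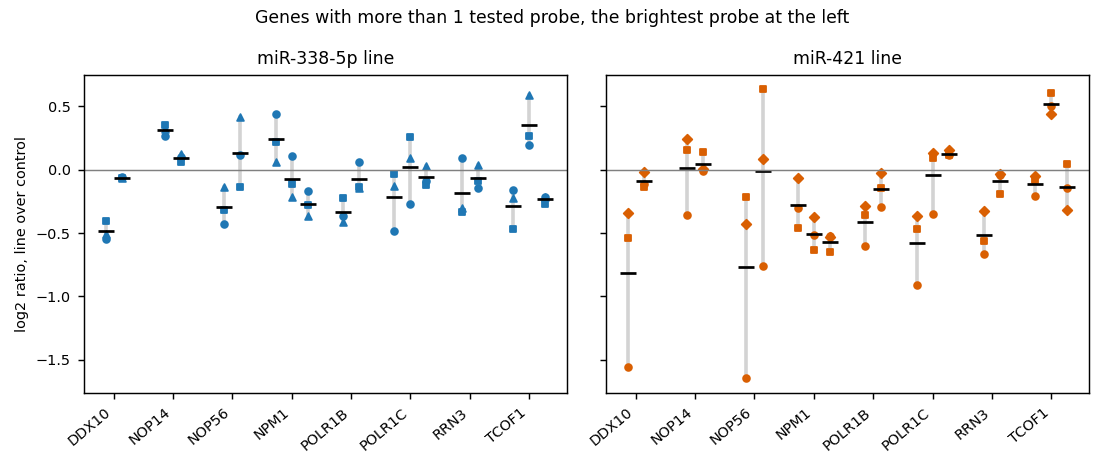
Log2 ratio over control (y axis) of each tested probe of the 8 members with more than 1 (x axis), with the brightest probe at the left, 1 point per array, a grey line over their range and a bar at the mean. The TCOF1 probes differ in sign in the miR-421 line, and the 3 NPM1 probes have means between -0.57 and -0.28 there.

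A longer list of other ribosome biogenesis genes was read in the same fit. Of 150 listed genes, 146 were tested (not MYCN, DDX52, MDN1 and DIS3). In the miR-421 line 56 fell and 9 rose (median -0.36), where 12.9% of all genes tested fell and 10.1% rose. In the miR-338-5p line 13 fell and 5 rose (median -0.13), beside 5.32% and 4.06% of all genes tested. Between the lines 0 passed, with 37 at an unadjusted p under 0.05, where 14.5% of all genes tested did. The largest falls past the threshold were NOL8 (40.0% of control) and LYAR (44.5%) in the miR-421 line. In the miR-338-5p line they were MTREX, the helicase of the nuclear exosome (56.4%), and GTPBP4 (58.3%). EMG1, a methyltransferase of the small-subunit RNA, rose in both lines (1.77-fold in the miR-338-5p line and 1.43-fold in the miR-421 line, adjusted p = 0.00589 and 0.00844). DDX49 rose in the miR-338-5p line (1.56-fold) and EIF6, which keeps the subunits apart, in the miR-421 line (mean log2 ratio 0.59 ± 0.07). MYC did not pass in either line (means -0.11 ± 0.24 and -0.88 ± 1.15, adjusted p = 0.897 and 0.163).

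The promoters were searched for the E-box CACGTG, which reads the same on both strands, from 250 bases before to 50 after each start in RefSeq (GRCh38.p14). Of the 34 members with an entry, 15 (44.1%) held it, beside 8.77% of 27305 genes in the table and 1360 of the 11291 genes tested on the array. Of the 15 members with the motif, 4 fell and 1 rose in the miR-421 line (median -0.17). Of the 19 without it, 11 fell and 1 rose (median -0.55), and of the 7 with no entry 4 fell and 1 rose (median -0.72). Over all genes tested, 12.9% fell and 10.1% rose in that line, and their calls were not split by the motif. The contrast between members with and without it was not tested. A match is a description of these letters only. The stretches below hold the E-box (capitals) before the start of a member that fell in both lines (UTP20), one that rose (IMP4, the first of 2 copies) and one that passed in neither (DDX21). They lie at chr12:101280055-101280104, chr2:130342654-130342739 and chr10:68956576-68956646 (GRCh38.p14, plus strand).
UTP20: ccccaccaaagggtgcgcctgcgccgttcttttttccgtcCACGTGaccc
IMP4: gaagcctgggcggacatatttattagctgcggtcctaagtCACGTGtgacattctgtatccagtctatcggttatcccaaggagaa
DDX21: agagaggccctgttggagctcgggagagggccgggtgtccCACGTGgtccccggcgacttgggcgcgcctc

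The labelled cell type was checked on the control RNA. The prostate epithelial markers KLK2, KLK3, HOXB13, FOLH1, TMPRSS2, KRT8, KRT18, EPCAM, CDH1 and SPINK1 were well above background in Cy3 on all 6 arrays. The fibroblast genes COL1A2 and COL3A1 and the endothelial genes PECAM1 and KDR were above it on none, while COL1A1, DCN, LUM, VWF, CDH5 and the leukocyte genes PTPRC and CD3E were above it on all. CD68 and LYZ were not analysed here. The part of such signals in the members' values was not tested. No spot was saturated, and the number of arrays, 3 per group, limits the precision.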

How the data were processed

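RNA of the miRNA lines (Cy5) and of the control line (Cy3) was read on 6 Agilent arrays. Per the file headers, scans were read by the authors in Feature Extraction (version 11.5.1.1). The deposited intensity values, per dye, are spot means and local background medians before any normalization. The deposited log10 ratio, per the file headers, followed that software's background and dye correction. The authors' deposited series table holds log2 ratios whose normalization is not given in the sources used here. Both served as alternatives.

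Intensities were corrected with normexp (offset 50) and normalized by loess within arrays, with control spots at weight 0 and outlier spots left out. Spots of 1 probe were averaged. Probes that at least 3 of the 6 arrays marked as well above background, in Cy3 or Cy5, were tested with limma 3.58.1 in R 4.3.3 (lmFit, eBayes, a mean per group, all 6 arrays, two-sided), with Benjamini-Hochberg adjustment over all probes tested at 0.05. The median and the counts for all genes use 1 probe per gene, the brightest. The fit was tested on simulated data.

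All 41 members are named, each by its brightest tested probe. Values on every array are given for up to 10 members past the threshold per comparison with control, the 4 largest differences, and NCL, NPM1, FBL, DKC1, POLR1A, UBTF and TCOF1. From the longer list the 2 largest rises and falls per comparison, and MYC, are named. Further values were added after they were seen. The members, roles and lists were chosen with earlier results of these data known. Both comparisons share the control line. Replicate numbers 1 and 2 occur in both groups, but same-numbered arrays did not deviate together, and no pairing was used. Probe positions are on hg19. Promoter and miRNA sequences are from RefSeq (GRCh38.p14). Protein sequences were not used here. Some of the cell type markers that were read are not reported here.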

Additional observations from a re-analysis of the deposited data

Results flagged for a closer look

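NPM1 was flagged because the lines lay on opposite sides of control on its brightest probe, with every miR-338-5p value over 0 and every miR-421 value under it. For 20.2% of all genes tested the arrays of the lines did not overlap either. How many of those genes lay on opposite sides of control was not counted. The NPM1 difference (miR-338-5p minus miR-421) was 0.52 on the log2 scale and did not pass in limma (adjusted p = 0.226). Its other tested probes averaged below 0 in both lines. They passed in the miR-421 line, and the dimmest of them also passed in the miR-338-5p line (adjusted p = 0.0497).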

How the results depend on the processing

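The members' median stayed below 0 against control in both lines, and above 0 for the difference, under every alternative run. The number of members called was less steady. In the miR-338-5p line 2 passed, against 0 with local background subtracted, the ratio of the image software, the authors' table or a fit on the group's own 3 arrays, 1 with median centring or no filter on dim probes, 5 with an intensity trend and robust variances, and 0 to 14 with 1 array left out. In the miR-421 line 22 passed, against 14 with background subtracted, 10 with median centring and 11 with the software's ratio. There were 14 with the authors' table, 13 with the group's own 3 arrays, and 2 to 17 with 1 array left out. With no background correction 20 fell and 3 rose, and with an intensity trend and robust variances 21 fell and 3 rose. The share of all probes called in the miR-421 line moved as well. It was 21.6% in the main fit, 20.5% with background subtracted, 14.1% with median centring and 19.4% with the software's ratio. With the authors' table it was 19.7% of the genes read from it, and with the group's own 3 arrays 14.5%. No background correction gave 25.1%, the trend and robust variances 25.3%, and leaving 1 array out 2.29% to 20%. In the miR-338-5p line that share was 9% in the main fit, 5.74% with background subtracted and 3.97% with the software's ratio. It was 4.54% with the authors' table and 0.778% with the group's own 3 arrays. Median centring gave 4.67%, no filter on dim probes 2.73%, the trend and robust variances 12.5%, and leaving 1 array out 1.45% to 13.3%. The difference called 0 throughout. The miR-338-5p median moved to -0.29 with median centring, which also moved the median of all genes tested to -0.08. The members' median in the miR-338-5p line was -0.15 with the authors' table and -0.11 with probes of a gene averaged. With 1 array left out it ranged from -0.22 to -0.10, and the median difference from 0.036 to 0.37. IMP4 and UTP20 passed in the miR-421 line under all 16 alternatives, and NOP58, UTP15, GNL3 and NOP16 under 15. NIP7 passed there under 6, DDX10 under 5 and DKC1 under 4. In the miR-338-5p line UTP20 passed under 10 and GNL3 under 6.

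Lower calls made up 58.0% of all probes called in the miR-338-5p line, and 82.0% with median centring, 45.8% with the software's ratio, 45.5% with background subtracted and 44.2% with the authors' table.

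Signs turned for values that had not passed. In the miR-338-5p line NIP7 became -0.037 and UBTF -0.036 with median centring, and NPM1 became -0.060 (software's ratio), -0.16 (authors' table) and -0.034 (probes averaged). FBL became -0.042 and -0.045 there, and -0.095 and -0.096 in the miR-421 line, with the software's ratio and the authors' table. In the miR-421 line NPM1 became 0.12 with median centring, and TCOF1 0.23 with the authors' table and 0.088 with probes averaged. For the difference, UTP20 became -0.024 with median centring and FBL 0.053 and 0.050 with the software's ratio and the table. With 1 array left out, NIP7 in the miR-338-5p line ranged from -0.0012 to 0.12, and the differences ranged from -0.28 to 0.37 for NOLC1, -0.047 to 0.56 for DDX10, -0.083 to 0.012 for FBL and -0.074 to 0.197 for POLR1A. The causes were not tested.

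With the replicate block for the 2 shared numbers, 0 members passed for the difference and their median was 0.30. The deviations of same-numbered arrays correlated at -0.14 and -0.21.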
